A study of Mus musculus with 5 samples.

Results

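The genes described here are 10 secreted factors by which macrophages act on fibroblasts and vessels after infarction: the TGF-beta ligand Tgfb1 and the TGF-beta-induced matrix protein Tgfbi, the platelet-derived growth factors Pdgfa, Pdgfb and Pdgfc, oncostatin M (Osm), the EGF-family ligands Hbegf, Areg and Ereg, and fibronectin (Fn1). They were chosen by function, with earlier results of these data known, and each was taken from the row of the count table with its symbol. All 10 were found among the 21289 genes of the table, and 9 held enough counts to be tested, the exception being Ereg. RNA came from CD45+CD64+ cells sorted out of the hearts of male C57BL/6JGpt mice, wild type by their labels, on day 7 after myocardial infarction. The untreated group (2 samples) had infarction alone, and the curcumol group (3 samples) had infarction and 30 mg/kg curcumol by daily gavage for 7 days. No sham-operated group was part of the comparison, so every level is that of an infarcted heart. The labels do not say how many animals a sample holds or whether the untreated mice received a vehicle, so a p-value here reflects variation among these 5 libraries, which may be technical.

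After an infarction, macrophages clear dead muscle and then release factors that recruit and activate fibroblasts and support new vessels. TGF-beta 1 is secreted in a latent complex and, once freed, drives fibroblasts towards myofibroblasts, PDGFs act on fibroblasts and mural cells through PDGFRA and PDGFRB, EGF-family ligands are shed from the cell surface and bind EGFR and its relatives, and oncostatin M signals through OSMR or LIFR paired with gp130 (Il6st). Fibronectin and TGFBI are laid down in the matrix and bind integrins.

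The libraries held between 39768705 and 43315822 counts and differed in how many genes had any count: 12243 and 12915 in the untreated libraries and 17078 to 18501 in the curcumol libraries. The log2 levels of the 2 untreated libraries correlated across genes at 0.94 (Pearson), no better than an untreated with a curcumol library (0.941 to 0.95), whereas curcumol libraries correlated with each other at 0.984 to 0.986. A chi-square per gene on the counts gave another order. It was 134 for the untreated pair, 92.1 to 144 between curcumol libraries and 218 to 350 for an untreated with a curcumol library. Every difference below rests on this untreated pair. Levels are CPM, counts scaled by TMM-adjusted library size to a common total, where 3 counts correspond to 0.0681 to 0.0767 CPM. Markers of the sorted cells were present in every library, with a summed level over 8 macrophage genes of 32130 and 32510 CPM without and 25620 to 30780 CPM with curcumol. Lyz2 made up most of this sum, at 25000 and 26060 against 20530 to 24140 CPM. Within the list Cd68, Fcgr1 and Lyz2 were lower and Mertk and Itgam higher in each curcumol library, and the others overlapped. The order depended on the scaling. With total counts in place of TMM-adjusted sizes, 1 of the 8 genes was lower and 4 were higher in each curcumol library (9.31% and 36.6% of all tested genes). Some other lists overlapped between the groups. The 5 platelet markers summed to 1025 and 1063 CPM without and 897.1 to 1191 CPM with curcumol (Gp1bb at 0 without it). Nearly all of this sum was Pf4, at 993 and 1004 against 862 to 1155 CPM. Itga2b, Gp9 and Gp1bb were each at most 3.14 CPM in any library. The 6 mural markers summed to 34.3 and 15.2 against 19.98 to 33.85 CPM (Myh11, Rgs5, Tagln and Pdgfrb at 0 without curcumol). Acta2 made up most of the untreated sum, at 27.0 and 15.2 against 9.32 to 21.1 CPM, whereas Rgs5 was at 8.13 to 14.3 CPM with curcumol. The 5 dendritic markers summed to 51.6 and 29.6 against 33.7 to 61.6 CPM (Clec9a at 0). T cell and mast cell lists, given below with Areg, overlapped too. The remaining lists were not level between the groups. The 8 neutrophil markers summed to 287 and 320 CPM without and 1398 to 3336 CPM with curcumol, with Camp and Ly6g at 0 in both untreated libraries. The 9 fibroblast markers summed to 30.5 and 36.9 against 134.7 to 359 CPM (Lum, Pdgfra and Mfap5 at 0 without curcumol), and the 7 endothelial markers to 27.8 and 32.3 against 56.4 to 105.1 CPM (Cdh5, Tie1 and Egfl7 at 0). The 7 cardiomyocyte markers summed to 28.8 and 55.7 against 91.4 to 110 CPM (Ryr2 at 0), and the 4 B cell markers to 54.7 and 36.5 against 66.5 to 98.6 CPM. In the other direction, 14 genes of the early stress response that tissue dissociation can evoke summed to 38390 and 39890 CPM without and 11070 to 19240 CPM with curcumol. The part of these differences in the results below was not tested. In bulk RNA, fewer cells of a type and less RNA per cell cannot be told apart.

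**Figure D1:**
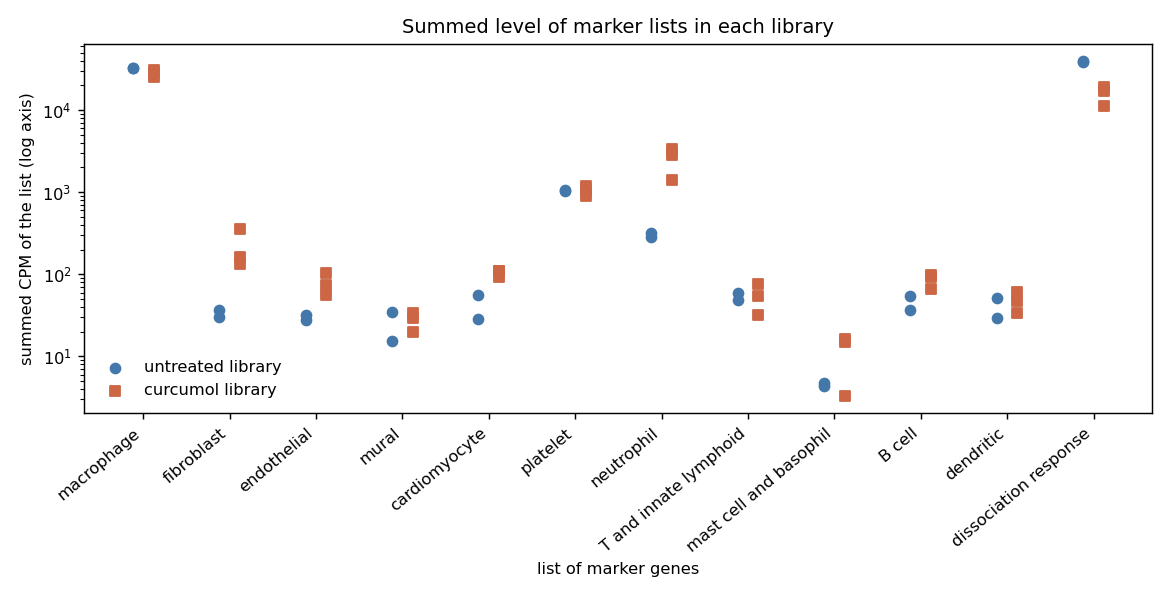
Summed CPM (log axis) of each list of marker genes in each library, circles for the 2 untreated and squares for the 3 curcumol libraries. With TMM scaling the macrophage list stood between 25620 and 32510 CPM in all 5 libraries. It was lower in every curcumol library, as was the dissociation list. With total counts more macrophage genes were higher than lower in each curcumol library (4 and 1 of 8). The neutrophil, fibroblast, endothelial, cardiomyocyte and B cell lists were higher in every curcumol library, and the other lists overlapped between the groups.

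Per length, that is CPM divided by the kilobases of the longest coding transcript, the highest level in the untreated libraries was that of Tgfbi (498 ± 92.8 CPM per kb, SD, n = 2), followed by Osm (228 ± 12.3) and Fn1 (58.7 ± 10.4). Pdgfa (11.6 ± 3.18), Areg (6.87 ± 2.15), Pdgfc (5.59 ± 2.96), Tgfb1 (3.28 ± 0.0031), Pdgfb (3.09 ± 2.22) and Hbegf (2.35 ± 3.18) came far below, and Ereg had no count. The libraries of the first 5 genes in this order did not overlap between neighbours, whereas Areg and Pdgfc overlapped, as did Tgfb1, Pdgfb and Hbegf. With curcumol (n = 3) Tgfbi again led at 391 ± 39.5 CPM per kb, and Fn1 (68.4 ± 22) and Osm (55.2 ± 23.5) overlapped in the next place. Pdgfc (8.02 ± 0.564), Pdgfa (7.41 ± 0.846) and Pdgfb (5.95 ± 1.92) formed an overlapping group, Tgfb1 stood at 1.83 ± 0.147, and Hbegf (0.584 ± 0.261), Areg (0.580 ± 0.538) and Ereg (0.0386 ± 0.0620) were lowest. With all annotated exons merged as the length, Tgfb1 fell below Pdgfb in the untreated order (1.42 against 2.19 CPM per kb) and Osm stood above Fn1 in the curcumol order (55.2 against 48.7), and Areg stood above Hbegf (0.580 against 0.287).

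None of the 9 tested genes passed an adjusted p of 0.05 between the groups in edgeR's quasi-likelihood test, and of all 14508 tested genes 0.207% did, 0.138% as lower and 0.0689% as higher with curcumol. An unadjusted p under 0.05 was reached by 1 member, Osm, which was lower, against 24.6% of all tested genes in either direction and 6.51% lower. DESeq2 called 1 member, again Osm, which was lower with curcumol, as were 4.37% of the genes it tested. Of the 9 members 6 had a negative and 3 a positive log2 fold change (curcumol over untreated), with a median of -0.64 beside 0.15 over all tested genes. For 5 members (Osm, Areg, Tgfb1, Tgfbi and Pdgfa) each untreated library stood above each curcumol library, as for 14.9% of all tested genes, and for none did each curcumol library stand above, as for 29.5% (44.4% in either direction). With CPM on total counts in place of TMM, which moves the median of all genes to 0.34, 3 of these (Osm, Areg and Tgfb1) still stood above without curcumol, Tgfbi and Pdgfa overlapped, and Pdgfb and Pdgfc were higher in each curcumol library. The corresponding shares of all tested genes were then 9.31% and 36.6%.

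**Figure D2:**
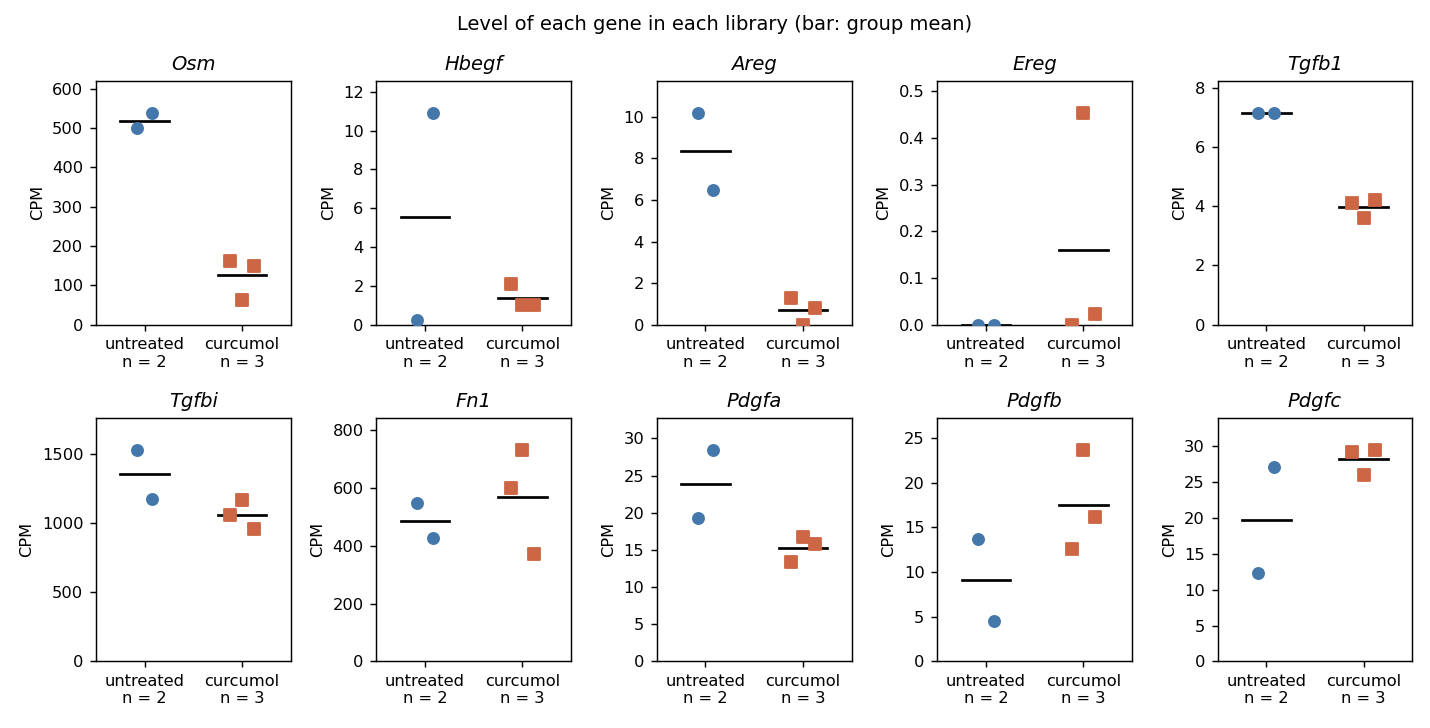
CPM of each of the 10 genes in each library, on linear axes that start at 0, with circles for the 2 untreated libraries, squares for the 3 curcumol libraries and bars for group means. Osm was near 500 CPM in both untreated libraries and at most 162.5 CPM with curcumol, while Hbegf, Pdgfb and Pdgfc were spread widely between the 2 untreated libraries.

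Oncostatin M, a cytokine of the IL-6 family released by activated macrophages and neutrophils, had the smallest p of the 9 tested members. Osm (NCBI gene 18413) measured 499 and 539 CPM without and 162.5, 64.0 and 149 CPM with curcumol. Both untreated libraries were high and close together, all curcumol libraries were low, and the groups did not overlap. The fitted difference was 4.14-fold (log2 fold change -2.05 ± 0.38 SE, unadjusted 95% interval -2.97 to -1.13), with an edgeR adjusted p of 0.0651 that missed the threshold. It passed with DESeq2 (adjusted p = 1.59e-05), with limma-voom (0.0218) and without a filter on low counts (0.0234). The log2 fold change was -2.10 without untreated replicate 1 and -1.97 without replicate 2. In these 2 fits the lone untreated library is assumed to vary like the curcumol ones. The untreated libraries differed by a CV of 5.40% and the curcumol libraries by 42.7%, replicate 2 being lowest. Over all 12 alternatives the log2 fold change ranged from -2.34 to -1.73 and the adjusted p up to 0.153. Markers of neutrophils, which also make oncostatin M, were higher with curcumol and the dissociation genes lower, as given above, and their part in this difference was not tested.

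Of the other oncostatin M pathway genes the ligands Il6 and Lif were lower and the receptor chains Osmr, Il6st and Lifr higher in each curcumol library, though none of the 12 tested of 14 listed passed the edgeR threshold (6 higher and 3 lower at an unadjusted p under 0.05, beside 18.1% and 6.51% of all tested genes). The median log2 fold change over them was 0.78, with 8 positive and 4 negative, and for 7 each curcumol library stood above and for 3 each untreated library, beside 29.5% and 14.9% of all tested genes. Il6, the founding cytokine of the family, stood at 29.8 and 30.7 CPM without and at 2.99, 1.27 and 4.42 CPM with curcumol (log2 fold change -3.39 ± 0.55, edgeR adjusted p = 0.0637). Lif, the leukemia inhibitory factor, was at 1.95 and 2.74 against 0.119, 0.431 and 0.188 CPM. Clcf1 was at 10.2 and 0.154 CPM without and 3.29 to 5.12 CPM with curcumol, which overlap, while Il11 had no count in any library and Ctf1 was at most 0.211 CPM. Osmr, the specific receptor chain, had no count without curcumol and 0.932, 1.32 and 0.752 CPM with it, at least 13-fold higher when 3 counts per library are taken as the floor (edgeR adjusted p = 0.0662). This floor, here and below, covers counting error only. Genes at 0 in 1 untreated library could have many counts in the other, as Tgfb3 (0 and 276) and Emcn (130 and 0). Folds over the floor are thus not firm lower limits. The Osmr levels are low and were seen in libraries that held more genes and more fibroblast and endothelial markers. The shared receptor chain Il6st was at 12.2 and 8.60 against 23.8, 30.5 and 21.7 CPM, and Lifr at 26.9 and 53.4 against 114, 218 and 89.5 CPM. The kinase Jak1 stood at 88.9 and 117 against 196, 272 and 172 CPM (log2 fold change 1.05 ± 0.25, edgeR adjusted p = 0.0732). Stat3, the transcription factor they activate, was at 147.5 and 124 against 221, 268 and 199.8 CPM, and Socs3, its feedback inhibitor, at 556 and 529 against 345, 246 and 417 CPM.

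Among the EGF-family ligands, Areg was lower in each curcumol library, Hbegf differed more within the untreated group than between groups, and Ereg was barely present. Amphiregulin, encoded by Areg (NCBI gene 11839), is a growth factor of tissue repair made by several leukocytes. It stood at 10.2 and 6.50 CPM without and at 1.29, 0 and 0.822 CPM with curcumol, from 402 and 254 counts against 54, 0 and 35. The fitted difference was 11.8-fold lower but imprecise (log2 fold change -3.56 ± 1.56, 95% interval -7.33 to 0.21, edgeR adjusted p = 0.224). The log2 fold change was -3.20 without untreated replicate 1 and -3.83 without replicate 2. The interval reaches from a far larger difference to none. Lists of cells known to make amphiregulin were small: 7 T and innate lymphoid markers in the table summed to 48.4 and 59.2 CPM without and 31.6 to 75.3 CPM with curcumol (Foxp3, Gata3 and Ncr1 at 0 without it). Il7r made up most of the untreated sum, at 43.4 and 37.0 against 14.5, 40.7 and 28.9 CPM. It had the 1 negative log2 fold change of the 7, and the other 6 were positive. The 6 markers of mast cells and basophils summed to 4.71 and 4.40 against 3.29 to 16.2 CPM (Mcpt4, Fcer1a, Kit and Cma1 at 0 without it).

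Hbegf (NCBI gene 15200), heparin-binding EGF-like growth factor, had 9 counts in the first and 427 in the second untreated library, that is 0.228 and 10.9 CPM, and the curcumol libraries lay between at 2.10, 1.02 and 1.03 CPM. No direction can be given: the log2 fold change was -2.01 ± 1.36 (edgeR adjusted p = 0.436), -2.97 without untreated replicate 1 and 2.61 without replicate 2. Ereg (NCBI gene 13874), epiregulin, had no count in either untreated library, which allows up to 0.0767 CPM by counting error alone. It stood at 0, 0.454 and 0.0235 CPM with curcumol, the second value being 20 counts of 1 library. It was too low for the test. In the RefSeq table the EGF-family genes Epgn, Ereg, Areg and Btc follow one another on the same chromosome, and only Areg of these had a count in the untreated libraries: Epgn was at most 0.636 and Btc at most 0.311 CPM with curcumol.

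The promoter of Areg is shown because it belongs to the EGF-family ligand with counts in both untreated libraries and few or none with curcumol, and that of Tgfb1 because its libraries were also separate, with a different promoter type. RefSeq promoters (GRCm38.p6) matched 5 of the 10 genes (Tgfb1, Tgfbi, Pdgfa, Pdgfc and Areg). Both printed sequences are the 250 bases before the start of transcription, 5′ to 3′, on the plus strand, at chr5:91139349-91139598 for Areg and chr7:25686752-25687001 for Tgfb1. Capitals mark matches to 4 motifs, searched on both strands. The first, the cyclic AMP response element, was spelled TGACGTCA. The second, the AP-1 element bound by Fos and Jun proteins, was spelled TGANTCA. The third, the TATA box near which transcription starts, was spelled TATAAA. The last, the GC box bound by Sp1 and related factors, was spelled GGGCGG and appears in its reverse complement where it lies on the other strand.
Areg: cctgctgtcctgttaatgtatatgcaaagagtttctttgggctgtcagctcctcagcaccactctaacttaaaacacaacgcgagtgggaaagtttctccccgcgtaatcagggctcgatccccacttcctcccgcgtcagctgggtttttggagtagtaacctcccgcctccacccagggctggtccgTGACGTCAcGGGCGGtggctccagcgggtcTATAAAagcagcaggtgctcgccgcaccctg
Tgfb1: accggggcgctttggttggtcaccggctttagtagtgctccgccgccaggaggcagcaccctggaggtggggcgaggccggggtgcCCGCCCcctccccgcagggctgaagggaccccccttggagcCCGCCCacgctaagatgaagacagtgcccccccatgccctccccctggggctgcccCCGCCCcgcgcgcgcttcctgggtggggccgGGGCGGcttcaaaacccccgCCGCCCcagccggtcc
In the Areg promoter the cyclic AMP response element lay 61 to 54 bases before the start, next to a GC box at 52 to 47 and upstream of a TATA box at 31 to 26, and no match overlapped another. The full response element was found in 1.55% of 32851 promoters of the same length, the TATA box in 12.4%, the GC box in 32.7% and the AP-1 element in 6.75%. The Tgfb1 promoter held 5 GC boxes and no match to the other 3 motifs, with a GC content of 75.2% against 57.2% for Areg and a median of 52.4% over all promoters. Tgfbi and both Pdgfa promoters also held a GC box, and that of Pdgfc held none of the 4 motifs. These matches describe the letters only, and no binding was measured.

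The other genes of the EGF-family pathway were further ligands, receptors, genes of ligand shedding and inhibitors. They showed no call among 18 tested of 22 listed, with 13 positive and 5 negative log2 fold changes (15 and 3 with total counts). Their median was 1.55 (1.36 with genes lacking an untreated count set at their bound). For 10 each curcumol library and for 2 each untreated library stood above, beside 29.5% and 14.9% of all tested genes. Adam17, the main sheddase of these ligands, overlapped between the groups at 151 and 162 against 153.5, 196 and 107.5 CPM, while Adam10, a related protease, was at 22.7 and 18.3 against 46.6, 144.6 and 54.1 CPM (edgeR adjusted p = 0.0816). Timp3, an inhibitor of such proteases, had 0 and 0.0512 CPM without and 4.28, 15.7 and 7.78 CPM with curcumol (adjusted p = 0.0640). The receptor Egfr stood at 0 and 0.0256 against 5.11, 6.79 and 1.55 CPM (adjusted p = 0.0651), Erbb3 at 1.01 and 0 against 3.16, 4.93 and 1.34 CPM, and Erbb2 and Erbb4 at no more than 0.305 CPM in any library. Timp3 and Egfr are also expressed by stromal cells such as fibroblasts, and the fibroblast markers were higher in the same libraries as given above. Cd9, a tetraspanin that associates with membrane-bound HB-EGF, was lower in each curcumol library, at 379 and 450 against 207, 271 and 209 CPM (log2 fold change -0.86 ± 0.19, adjusted p = 0.0671). Of the other ligands Nrg1 (1.65 and 1.02 against 4.40, 0.659 and 2.58 CPM) and Nrg4 (2.84 and 3.35 against 1.82, 4.13 and 1.08 CPM) overlapped between the groups, Nrg2 stood at 0.127 and 0.819 against 2.68, 2.20 and 1.03 CPM, Egf was at most 0.574 CPM, and Tgfa had counts in 1 curcumol library alone (0.681 CPM).

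**Figure D3:**
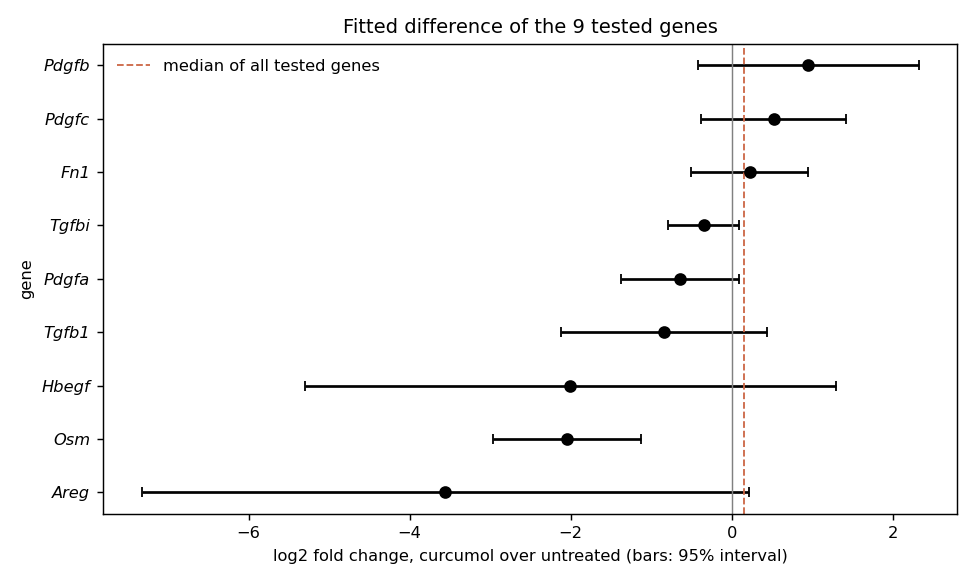
Fitted log2 fold change (curcumol over untreated) of the 9 tested genes with unadjusted 95% intervals, beside 0 (solid line) and the median of all tested genes (dashed line). The interval of Osm, -2.97 to -1.13, is the only one of the 9 that excludes 0, and those of Areg and Hbegf are the widest.

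Tgfb1 transcripts were few in these cells. Tgfb1 (NCBI gene 21803) stood at 7.15 and 7.14 CPM without and at 4.11, 3.61 and 4.21 CPM with curcumol, which was lower in each curcumol library (log2 fold change -0.84 ± 0.53, 95% interval -2.12 to 0.44, edgeR adjusted p = 0.395). The untreated libraries had a CV of 0.0933% and the curcumol libraries one of 8.03%, and DESeq2 gave an adjusted p of 0.0825. The untreated CV rests on 282 and 279 counts. It is smaller than counting error at such counts would usually leave, so it is no measure of precision. Its transcript had a GC content of 62.5%, the highest of the 10, against a median of 50% over the 17506 genes with an annotated transcript. Tgfbi (NCBI gene 21810), by contrast, was the most abundant member, at 1530 and 1174 CPM without and 1060, 1168 and 953.7 CPM with curcumol. The second untreated library and the second curcumol library were thus level, and they crossed with total counts as the scaling (log2 fold change -0.35 ± 0.18, edgeR adjusted p = 0.306; -0.14 without untreated replicate 1).

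Of the other TGF-beta pathway genes 26 of 28 were tested and none passed in either direction, with 18 positive and 8 negative log2 fold changes and a median of 0.58. For 9 each curcumol library and for 5 each untreated library stood above, beside 29.5% and 14.9% of all tested genes. The inhibitors of the pathway did not share a direction. Tgif1, a corepressor of SMAD proteins, stood at 325 and 299 against 84.0, 90.3 and 123 CPM (log2 fold change -1.65 ± 0.20, edgeR adjusted p = 0.0524), and Skil, another, at 136 and 149 against 41.0, 78.9 and 53.7 CPM (-1.30 ± 0.28, 0.0665). Ski, a relative of Skil, had a positive log2 fold change (0.67 ± 0.34, adjusted p = 0.291), as had Smad6 (1.13 ± 1.75, 0.767), while Smad7 (-1.39 ± 0.82, 0.359) and Pmepa1 (-0.16 ± 0.47, 0.886) were negative, none of these 4 past the threshold. Ltbp4, which tethers latent TGF-beta to the matrix, had no count without curcumol and 4.25, 5.95 and 7.14 CPM with it, at least 75.3-fold higher than that floor (adjusted p = 0.0597), in the libraries with more fibroblast markers. Nrros, which holds latent TGF-beta 1 on the surface of myeloid cells, was far more abundant at 792 and 816 against 777, 483 and 455 CPM (adjusted p = 0.303). The type II receptor Tgfbr2 stood at 91.1 and 59.6 against 162, 163 and 111 CPM (adjusted p = 0.0889), the type I receptor Tgfbr1 at 45.5 and 58.5 against 39.1, 145.6 and 104 CPM, Eng at 24.7 and 42.8 against 53.8, 59.6 and 27.9 CPM, and Tgfbr3 at 0 in both untreated libraries and at most 1.20 CPM with curcumol. Among the other ligands Tgfb3 was at 0 and 7.06 against 1.82, 6.81 and 5.03 CPM, Tgfb2 at most 0.423 CPM, and Inhba, a subunit of activin A, at 3.24 and 10.5 against 0.645, 0.591 and 2.02 CPM (adjusted p = 0.141).

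The 3 PDGF genes did not share a direction, and none passed. Pdgfa (NCBI gene 18590) stood at 19.2 and 28.5 CPM without and at 13.3, 16.7 and 15.8 CPM with curcumol (log2 fold change -0.64 ± 0.30, edgeR adjusted p = 0.253; -0.31 without untreated replicate 2). On the merged exons of Pdgfa 26.1% of bases are shared with the antisense gene 6330403L08Rik, and since the strand setting of the counting is not known, reads of both cannot be told apart there. Pdgfb (NCBI gene 18591) was at 13.7 and 4.48 CPM without and at 12.6, 23.7 and 16.2 CPM with curcumol, with the first untreated library inside the curcumol range (0.95 ± 0.57, adjusted p = 0.371). The log2 fold change was 1.97 without that library and 0.37 without the second. Pdgfc (NCBI gene 54635) was at 12.3 and 27.0 CPM without and at 29.2, 25.9 and 29.5 CPM with curcumol, and here the second untreated library lay inside the curcumol range (0.52 ± 0.37, adjusted p = 0.459). The log2 fold change was 1.22 without the second and 0.06 without the first. Single untreated libraries thus set the size of both differences, and in opposite ways.

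The receptors of PDGFs had few transcripts in these cells: Pdgfra had no count without and 0.693, 2.27 and 0.540 CPM with curcumol, and Pdgfrb none without and 1.41, 1.91 and 1.53 CPM with it (at least 15.2-fold and 21-fold higher than the floor; edgeR adjusted p = 0.0730 and 0.0651). They also serve as markers of fibroblasts and of mural cells. As given above, the fibroblast list was higher in each curcumol library, while the mural list overlapped between the groups. All 6 other PDGF genes were tested, and for 5 each curcumol library stood above, as for 29.5% of all tested genes, with a median log2 fold change of 8.67 (4.0 with genes lacking an untreated count set at their bound). The remaining gene, Plau, the urokinase that can activate PDGF-D, was at 24.6 and 21.6 against 3.80, 1.20 and 2.61 CPM (log2 fold change -3.19 ± 0.55, adjusted p = 0.0644). Plat, the tissue plasminogen activator that cleaves PDGF-C, had no count without and 1.75, 3.11 and 2.09 CPM when curcumol was given, a rise above the floor of at least 30.2-fold in level (adjusted p = 0.0651), and the ligand Pdgfd was at 0 against 1.17, 1.70 and 0.987 CPM. Nrp1, a coreceptor, stood at 182 and 207 against 324, 326 and 241 CPM (adjusted p = 0.114).

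Fibronectin transcripts were abundant and did not separate the groups. Fn1 (NCBI gene 14268) stood at 549 and 426.5 CPM without and at 600.3, 734 and 371 CPM with curcumol, so that the untreated values lay within the curcumol range (log2 fold change 0.22 ± 0.30, 95% interval -0.51 to 0.95, edgeR adjusted p = 0.730). The gene-level counts do not separate the splice forms of fibronectin. Of 17 receptor, matrix and crosslinking genes listed beside it all were tested, none passed, 8 were positive and 9 negative, and the median was -0.04 (11, 6 and 0.15 with total counts). The chains of the fibronectin receptor, Itga5 (115 and 92.7 against 97.2, 128.5 and 77.2 CPM) and Itgb1 (461 and 321 against 419, 470 and 286 CPM), overlapped between the groups, as did Itgb5, Itgb3, Itga9, Sdc1 and Sdc4, and Itga4 stood at 23.4 and 13 against 31.5, 28.2 and 35.7 CPM. Osteopontin (Spp1), the matrix protein with the highest level, was at 12670 and 15310 against 7976, 5690 and 9030 CPM (-0.89 ± 0.24, adjusted p = 0.0801), and galectin 3 (Lgals3) at 4335 and 3992 against 1990, 2311 and 2946 CPM (-0.79 ± 0.20, adjusted p = 0.0787). Fbln2, fibulin 2, which fibroblasts make, had no count without and 5.81, 8.68 and 19.7 CPM in the treated libraries, at least 148-fold above the floor (adjusted p = 0.0593).

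**Figure D4:**
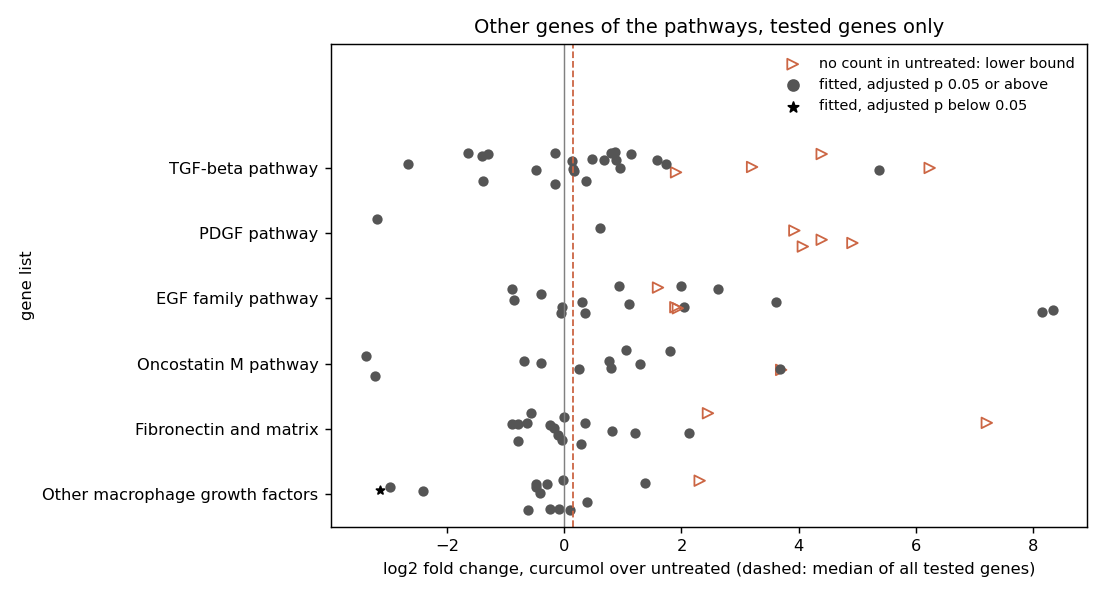
Log2 fold change (curcumol over untreated) of the other genes of each pathway, 1 point a tested gene. Open triangles are genes without a count in the untreated libraries, placed at the lower bound that 3 counts per library allow by counting error alone. The star is Vegfa at -3.15, the 1 gene of these lists past the edgeR threshold.

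Among 16 other growth factors and cytokines that macrophages make, 15 were tested and 1 passed, as lower with curcumol, beside 0.138% of all tested genes. Vegfa, the vascular endothelial growth factor, fell with curcumol from 58.4 and 63.5 CPM to 5.90, 8.47 and 6.25 CPM (log2 fold change -3.15 ± 0.26, edgeR adjusted p = 0.0229). Its call ended without curcumol replicate 1 (adjusted p = 0.0954), replicate 2 (0.105) or replicate 3 (0.0894), at log2 fold changes of -3.32 to -3.05, and with the replicate number as a block (-3.105, adjusted p = 0.0811). Il10, the anti-inflammatory interleukin 10, was at 99.0 and 89.6 against 10.01, 7.47 and 18.7 CPM (-2.97 ± 0.40, adjusted p = 0.0524). Gdf15, a stress-induced cytokine of the TGF-beta superfamily, was at 267 and 276 against 28.1, 18.3 and 107 CPM (adjusted p = 0.0933), and Grn, progranulin, at 5835 and 5093 against 4108, 3943 and 4220 CPM (adjusted p = 0.157). Fgf2 had no count without and at most 0.611 CPM with curcumol. Vegfb, a relative of Vegfa, was higher in each curcumol library, at 8.03 and 9.21 against 10.7, 10.7 and 12.3 CPM (adjusted p = 0.612). Of the 15 genes 4 were positive and 11 negative, with a median of -0.30 (6, 9 and -0.09 with total counts). For 5 each untreated library and for 2 each curcumol library stood above, beside 14.9% and 29.5% of all tested genes. Igf1, insulin-like growth factor 1, overlapped between the groups at 132.5 and 155 against 147, 151 and 160.3 CPM (0.09 ± 0.15, adjusted p = 0.797).

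The genes most like the leading members over the 5 libraries, by the Euclidean distance of centred log2 levels among 10260 candidates, are named next. For Osm they were Il1b, which encodes interleukin 1 beta (distance 0.439), at 1670 and 1340 against 492, 229 and 534 CPM, then the chemokine gene Ccl2 (0.456), and Spaca6 (0.558). For Areg they were Plau (0.523), Phlda1 (0.909) and Il6 (0.917), and for Pdgfa Trappc10 (0.0591), Cks1b (0.115) and Fbxw7 (0.132). With 5 libraries in 2 groups many genes share such a profile, and the distance is a description only.

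**Figure D5:**
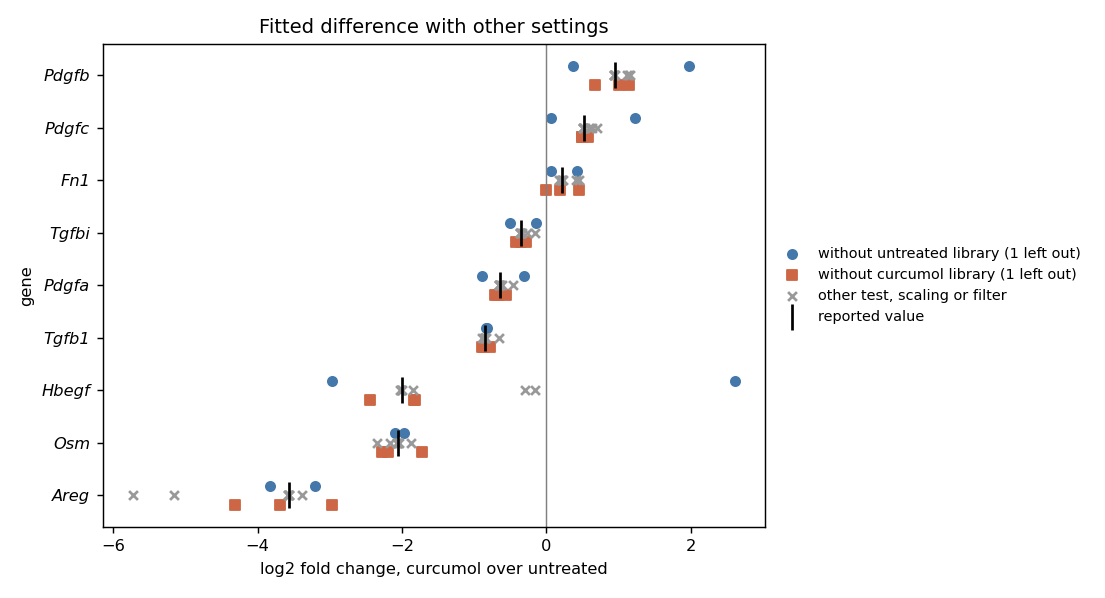
Log2 fold change of each tested gene as reported (black bar), with 1 untreated library left out (circles), with 1 curcumol library left out (squares), and with another test, scaling, filter or block (crosses). Osm stayed between -2.34 and -1.73, while Hbegf ran from -2.97 to 2.61 with the untreated library that was left out.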

How the data were processed

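Messenger RNA of sorted cardiac macrophages was compared between 2 untreated and 3 curcumol samples. The authors deposited raw counts per gene. Tools named in the submitters' processing notes are fastp, HISAT2, HTSeq and Bowtie2, without versions. The sources used here give no genome build, annotation or strand setting for the counting. The labels' protocols and the series' design text name different library kits (VAHTS Universal V6 and TruSeq Stranded). Each column was tied to its sample by title. Totals were 39768705 to 43315822 counts, and 752 of 21289 genes had none. Chi-square per gene was 92.1 or more between any 2 libraries, so none was the same library sequenced again. It cannot tell whether separate libraries came from the same RNA or animals. Floors of 3 counts cover counting error only.

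The main fit used edgeR 4.0.16 under R 4.3.3: TMM scaling, a filterByExpr filter with a minimum count of 10, a quasi-likelihood model of group alone (residual degrees of freedom: 3), two-sided p-values adjusted by Benjamini-Hochberg over all 14508 genes, and 0.05 as threshold. Each SE is the size of the log2 fold change divided by the root of its F value. Permuting 2 against 3 samples cannot reach the threshold and was not done for single genes. The code was tested on simulated data. Alternatives were DESeq2 1.42.0, limma-voom (limma 3.58.1), RLE factors, total counts, other filters, a replicate block and leaving out each sample. Added after seeing the data were total-count CPM for overlap, merged exons as length, bounds for genes without an untreated count, and the alternatives for Vegfa. Lengths and GC came from GENCODE M21 by gene name for 82.2% of genes.

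The members and lists were chosen with earlier results of these data known. Named were all members, and of each pathway list the genes past the threshold or else the 3 with the smallest p, with receptors and other ligands as levels. Ligands in the list of other growth factors were not all named. A few more genes of these lists (Adam10, Adam17, Nrros, Socs3 and Stat3) were named for their roles after their values were seen. Genes like a member were sought for the 3 members with the smallest p, adding 0.5 to CPM, among genes averaging 1 or more in log2 CPM.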

Additional observations from a re-analysis of the deposited data

How the results depend on the processing

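Across 12 alternatives for each of the 9 tested members, 97 of 108 values kept direction and side of the threshold, 9 passed the threshold and 2 turned. The turned values were Hbegf without untreated replicate 2 (log2 fold change 2.61; range -2.97 to 2.61 when 1 sample was left out) and Fn1 without curcumol replicate 2 (-0.0027; range -0.0027 to 0.45). The number of members past the threshold, 0 in the reported fit (1 at an unadjusted p under 0.05), was 1 with DESeq2, 1 without a filter on low counts and 1 with limma-voom, each time Osm, and 0 to 3 when 1 sample was left out (3 without either untreated replicate). Over all genes the count of 30 became 2653 with DESeq2, 10 with total counts, 416 without a filter, 98 with a CPM of at least 1 in 2 samples and 1661 with limma-voom, and ran from 0 (1791 higher and 592 lower at an unadjusted p under 0.05, in edgeR without curcumol replicate 2) to 3531 (without untreated replicate 2, and 2950 without replicate 1) when 1 sample was left out, with 1 without curcumol replicate 1 and 19 without replicate 3. Fits with 1 untreated sample assume that it varies like the curcumol samples. They tested 15768 genes without untreated replicate 1 and 15692 without replicate 2. A large share of all genes passed in them, so a member that passed there is not set apart. With the replicate number as a block 0 members and 45 genes passed, and the call of Vegfa ended (adjusted p = 0.0811). The labels do not say that numbers pair samples, and deviations of same-numbered samples correlated at 0.0385 and -0.00757. With total counts the number of members without overlap was again 5, but with Pdgfb and Pdgfc in place of Tgfbi and Pdgfa. Areg and Hbegf, under 11 CPM in each library, had the widest edgeR intervals of the 9 (SE 1.56 and 1.36). Tgfb1, also under 11 CPM in each library, had an SE of 0.53. The cause of these dependences was not tested.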
